A study of Mus musculus with 12 samples.

Results

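RNA from samples labelled with the mouse hepatoma line Hepa1-6 was compared between treatment with mIFNalpha alone (IFNa, 3 libraries) and treatment with anti-PD-1 antibody alone (antiPD1, 3 libraries). The comparison covers every gene with 10 or more counts in 3 or more of these 6 libraries, which were 14028 of the 21878 genes in the table, or 64.1%. Of these, 13064 had 10 or more counts in all 6 libraries, 71 reached the minimum through the antiPD1 libraries alone and 12 through the IFNa libraries alone. The third-highest count of the 6 was exactly 10 in 99 genes that were kept and 9 in 85 genes that were not. The study also held 3 untreated libraries and 3 libraries that received both agents (combination), and all 12 samples carry the same line, the tissue label liver and no genotype or strain. Doses, times, the sex and age of any host animal, and whether the replicates are separate animals or cultures are not stated in the labels. The p-values below therefore measure only the spread between these samples.

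Interferon alpha is a type I interferon. It binds the receptor made of Ifnar1 and Ifnar2 and, through Jak1, Tyk2, Stat2 and Irf9, switches on antiviral genes whose promoters carry interferon-stimulated response elements. PD-1, encoded by Pdcd1, is an inhibitory receptor of T cells, and antibodies that block it release T cells from inhibition by PD-L1, encoded by Cd274. Activated T cells secrete interferon gamma, which induces guanylate-binding proteins, antigen presentation genes and the chemokines Cxcl9 and Cxcl10.

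The 6 libraries held 32.9 to 38.5 M counts. The hepatoma genes of the labelled line were abundant in all of them, with Afp, alpha-fetoprotein, at 6250.4 to 11170.0 CPM (counts per M, scaled by TMM). Markers of immune cells were detected in every library, with Ptprc, encoding the leukocyte antigen CD45, at 21.2 to 224 CPM. In bulk RNA, fewer cells of a type and less RNA per cell cannot be told apart. A pair of libraries stood apart from their groups. AntiPD1 replicate 3 scored 88.7 on the first principal component of the 6 libraries (53.5% of the variance), against 11.1 and 5.22 in the other antiPD1 libraries. IFNa replicate 1 scored 58.3 on the second component (27.9%), against -23.5 and -27.7 in the other IFNa libraries. The summed level of 21 macrophage and monocyte genes was 14705 CPM in antiPD1 replicate 3 and 4810.1 to 5989 CPM in the other 5 libraries. The summed level of 29 cell cycle genes was 1418 CPM in IFNa replicate 1 and 2203 to 3293 CPM in the others. The sum of 4 Y-linked genes was 94.6 CPM in antiPD1 replicate 3, 39.2 and 26.2 CPM in antiPD1 replicates 1 and 2, and 27.3, 15.4 and 18.1 CPM in the IFNa libraries.

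Expression differed between the treatments in 18 genes (0.128% of those tested) by edgeR's quasi-likelihood test with Benjamini-Hochberg adjustment at 0.05. Of these, 9 were higher in antiPD1 (0.0642%) and 9 were higher in IFNa (0.0642%). The genes higher in antiPD1 included the plasma cell genes Jchain and Pou2af1, the acute phase gene Saa3, the lymphocyte integrin gene Itgb7 and the autotaxin gene Enpp2. Those higher in IFNa included the desmosome gene Pkp1, the transporter gene Slc4a11 and the cytochrome P450 gene Cyp2a4. At an unadjusted p below 0.05 there were 3149 genes (22.4%), of which 1877 (13.4%) had the greater level in antiPD1 and 1272 (9.07%) in IFNa. The median log2 fold change of all genes, antiPD1 minus IFNa, was 0.01.

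**Figure D1:**
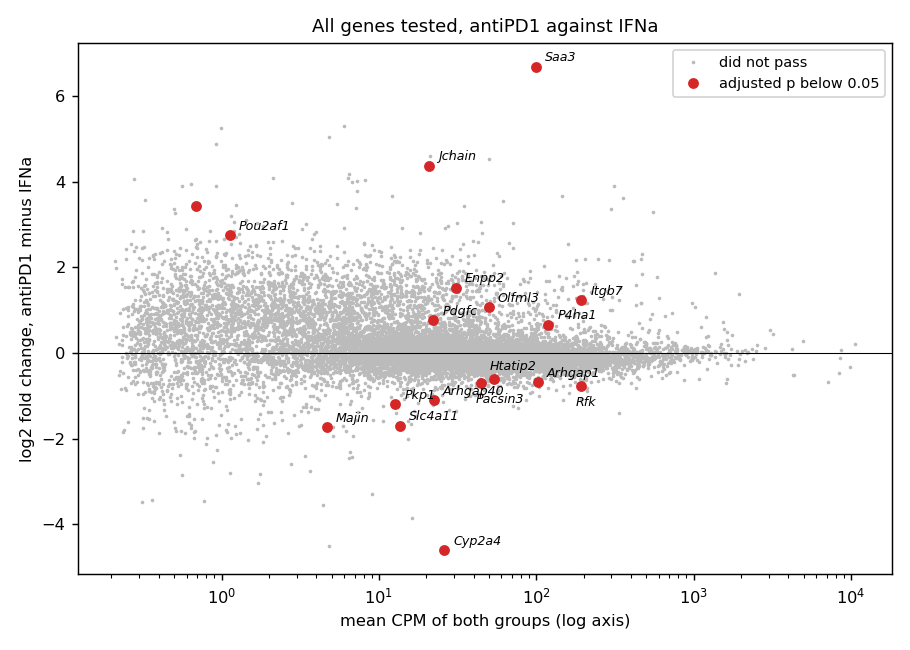
Log2 fold change of antiPD1 minus IFNa (vertical axis) against the mean CPM of both groups (horizontal log axis) for the 14028 genes, each a point. The 18 genes with an adjusted p below 0.05 are red and named except 1, from Saa3 at 6.69 to Cyp2a4 at -4.60.

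The immunoglobulin joining chain gene Jchain (chr5:88519809-88527891, minus strand, build mm10), whose product links secreted antibody polymers, had the smallest adjusted p. Its levels were 1.11, 2.06 and 2.59 CPM in IFNa replicates 1, 2 and 3 and 21.6, 41.5 and 56.8 CPM in antiPD1 replicates 1, 2 and 3. Every antiPD1 library was far above every IFNa library, and the log2 fold change was 4.37 ± 0.42 (SE; adjusted p = 0.00676). Jchain was at 1.12 to 2.14 CPM in the untreated and at 22.1 to 27.7 CPM in the combination libraries. Pou2af1 (chr9:51213708-51240080, plus strand), a B cell coactivator of octamer-binding factors, was at 0.24, 0.257 and 0.367 CPM in IFNa and at 1.53, 2.02 and 2.38 CPM in antiPD1. The groups did not overlap and the log2 fold change was 2.76 ± 0.42 (SE; adjusted p = 0.0452).

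Saa3 (chr7:46711998-46715700, minus strand) encodes a serum amyloid A protein made at sites of inflammation. It was at 1.83, 1.86 and 2.02 CPM in IFNa and at 32.4, 81.7 and 475 CPM in antiPD1. The IFNa libraries lay close together, while antiPD1 replicate 3 was far above the other antiPD1 libraries. The log2 fold change was 6.69 ± 0.96 (SE; adjusted p = 0.0434), and it was 4.89 without antiPD1 replicate 3 (adjusted p = 0.00868). Saa3 was at 1.22 to 2.62 CPM in untreated and 22.5 to 47.8 CPM in combination libraries.

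Enpp2 (chr15:54838901-54952892, minus strand) encodes autotaxin, the secreted enzyme that makes lysophosphatidic acid. Its levels of 14.2, 16.7 and 16.7 CPM in IFNa and 58.7, 44.7 and 33.7 CPM in antiPD1 did not overlap, and antiPD1 replicate 3 was here the lowest of its group. The log2 fold change was 1.53 ± 0.24 (SE; adjusted p = 0.0495). Itgb7 (chr15:102215995-102231944, minus strand), the beta chain of gut-homing and epithelium-binding lymphocyte integrins, was at 92.7, 125 and 128 CPM in IFNa and 224, 299.8 and 288 CPM in antiPD1. All 3 antiPD1 libraries exceeded all 3 IFNa libraries by a log2 fold change of 1.23 ± 0.19 (SE; adjusted p = 0.0434).

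Olfml3 (chr3:103722222-103738001, minus strand), a secreted olfactomedin-domain protein, was at 33.7, 29.2 and 33.4 CPM in IFNa and 61.6, 64.4 and 77.1 CPM in antiPD1. Pdgfc (chr3:81036416-81214040, plus strand), a platelet-derived growth factor ligand, was at 15.7, 16.6 and 16.7 CPM in IFNa and 26.9, 26.9 and 29.9 CPM in antiPD1. Both had little spread within groups that did not overlap, with log2 fold changes of 1.08 ± 0.15 for Olfml3 and 0.77 ± 0.11 for Pdgfc (SE; adjusted p = 0.0434 for each). P4ha1 (chr10:59323296-59373304, plus strand), the catalytic subunit of the prolyl hydroxylase that matures collagen and a known hypoxia target, was at 92.8, 89.3 and 93.7 CPM in IFNa. In antiPD1 it was at 155, 137 and 146 CPM, a log2 fold change of 0.67 ± 0.10 (SE; adjusted p = 0.0434) with no overlap.

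The log2 fold changes of the 9 genes higher in IFNa were between -1.74 and -0.61, apart from that of Cyp2a4. Pkp1 (chr1:135871395-135919207, minus strand), a plakophilin of desmosomes, was at 17.9, 18.8 and 16.5 CPM in IFNa and at 7.99, 8.03 and 7.23 CPM in antiPD1. These groups were separated by far more than their spread, with a log2 fold change of -1.19 ± 0.14 (SE; adjusted p = 0.0289). Slc4a11 (chr2:130684113-130697519, minus strand), a membrane transporter of the bicarbonate carrier family, was at 20.9, 22.9 and 18.8 CPM in IFNa and 7.73, 6.7 and 4.85 CPM in antiPD1. It differed by -1.70 ± 0.23 (SE; adjusted p = 0.0434) on the log2 scale, without overlap. Majin (chr19:6184388-6224225, plus strand), which anchors meiotic telomeres to the nuclear membrane, was at 6.24, 7.0 and 8.27 CPM in IFNa and 2.27, 1.94 and 2.25 CPM in antiPD1. The 2 groups were again apart, by a log2 fold change of -1.74 ± 0.23 (SE; adjusted p = 0.0434).

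Cyp2a4 (chr7:26307169-26315088, plus strand) encodes a steroid-hydroxylating cytochrome P450 that is more abundant in female than in male mouse liver. It was at 26.3, 51.5 and 72.0 CPM in IFNa and 2.63, 1.25 and 2.31 CPM in antiPD1. The lowest IFNa library was well above every antiPD1 library, and the log2 fold change was -4.60 ± 0.69 (SE; adjusted p = 0.0434). The gene has near-identical copies that can share its reads, so its level is uncertain. It was at 39.4 to 256 CPM in untreated and 0.641 to 1.58 CPM in combination libraries.

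The other genes higher in IFNa had log2 fold changes of -1.10 to -0.61. Arhgap40 (chr2:158512796-158550762, plus strand), named as a GTPase-activating protein, was at 40.4, 26.5 and 24.5 CPM in IFNa and 15.6, 12.5 and 14.4 CPM in antiPD1, a log2 fold change of -1.10. Rfk (chr19:17394043-17401349, plus strand), the riboflavin kinase that starts flavin cofactor synthesis, was at 280.4, 219.8 and 224 CPM in IFNa and 164, 125 and 138 CPM in antiPD1, a log2 fold change of -0.76. IFNa replicate 1 was the highest of its group for both. Pacsin3 (chr2:91255954-91264679, plus strand), an endocytic adaptor, was at 54.3, 52.7 and 58.6 CPM in IFNa and 36.7, 34.4 and 30.8 CPM in antiPD1, a log2 fold change of -0.70. Arhgap1 (chr2:91649860-91672326, plus strand), a GTPase-activating protein, was at 139.9, 123 and 117 CPM in IFNa and 88.8, 77.2 and 69.9 CPM in antiPD1, a log2 fold change of -0.68. Htatip2 (chr7:49759115-49773975, plus strand), a short-chain oxidoreductase, was at 68.4, 59.7 and 66.0 CPM in IFNa and 45.2, 39.1 and 43.2 CPM in antiPD1, a log2 fold change of -0.61. None of these 5 genes overlapped between the groups, and their adjusted p-values were 0.0434 to 0.0495.

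**Figure D2:**
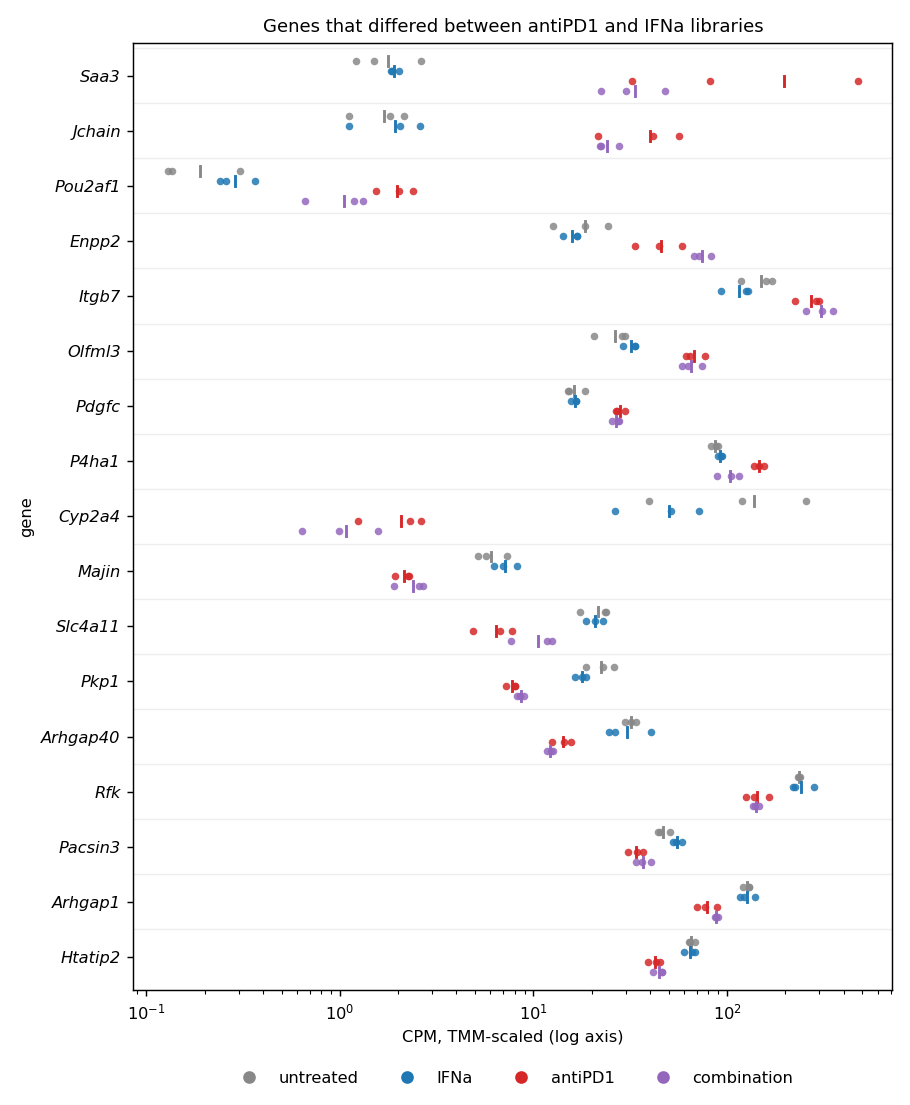
CPM (horizontal log axis) of the genes that passed, 1 not shown (vertical axis), in all 12 libraries; points are libraries coloured by group and short bars are group means. The IFNa points do not overlap the antiPD1 points in any gene shown. Over all 18 the IFNa range overlaps the untreated range in 9 of the 9 genes higher in antiPD1 and 8 of the 9 higher in IFNa. The share of all genes with such overlap is not given here.

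The untreated and combination libraries entered no side of this comparison and gave levels of the same 18 genes. The IFNa range overlapped the untreated range in 9 of the 9 genes higher in antiPD1 and in 8 of the 9 genes higher in IFNa, Pacsin3 being the exception. The antiPD1 range overlapped the combination range in 6 of the first 9 and 8 of the second 9. The share of all genes with such overlaps is not given here, so these counts are not a trait particular to the 18 genes. In combination minus untreated, which shares no library with antiPD1 minus IFNa but shares its estimate of the spread, the log2 fold change had the same sign in all 18. The share of all genes with the same sign in both is not given here either. The contrast of combination with untreated passed in the same direction in 8 of the 9 and 8 of the 9. Beside this, 7.63% of all genes passed higher in combination and 4.95% higher in untreated. The genes that did not pass there were P4ha1 (0.25, adjusted p = 0.111) and Pacsin3 (-0.33, adjusted p = 0.0602). For P4ha1 the combination libraries, at 89.2, 116 and 104 CPM, all lay below the antiPD1 libraries.

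The number of genes past the threshold depended on single libraries. Leaving out antiPD1 replicate 1 gave 506 genes higher in antiPD1 and 201 higher in IFNa. Without antiPD1 replicate 3 there were 2 and 0, and without antiPD1 replicate 2 there were 1 and 1. Without IFNa replicate 1 there were 7 and 41, without IFNa replicate 2 there were 0 and 0 (2867 at an unadjusted p below 0.05), and without IFNa replicate 3 there were 1 and 0. Leaving out untreated replicate 1, 2 or 3 gave 1, 3 and 2 genes higher in antiPD1 and 1, 3 and 3 higher in IFNa. Leaving out combination replicate 1, 2 or 3 gave 1 gene higher in antiPD1 each time and 0, 0 and 1 higher in IFNa. With only the 6 libraries compared, edgeR passed 0 genes (2051 at an unadjusted p below 0.05), while DESeq2 on all 12 passed 1007 and 632. All 18 genes kept their sign in each of the 26 alternatives in which they were tested. Jchain passed in 24 of them, with a log2 fold change of 3.21 to 4.67. Its exceptions were the fit of the 6 libraries alone (adjusted p = 0.245) and the fit without IFNa replicate 2 (adjusted p = 0.0913). Pkp1 passed in 15 and Majin in 14 of their alternatives. The other 15 genes passed in 12 or fewer.

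Further genes missed the threshold with groups that did not overlap. Mndal, an interferon-inducible DNA-sensor family member, was at 19.3, 19.6 and 19.9 CPM in IFNa and 30.5, 40.7 and 47.0 CPM in antiPD1 (log2 fold change 1.01, adjusted p = 0.0750). Cx3cl1, the membrane-bound chemokine fractalkine, was at 12, 16.0 and 13.2 CPM in IFNa and 27.7, 23.3 and 30.4 CPM in antiPD1 (0.98, adjusted p = 0.0758). Ccr1, a chemokine receptor of myeloid cells, was at 12.5, 15.8 and 16.0 CPM in IFNa and 30.7, 26.0 and 40.7 CPM in antiPD1 (1.13, adjusted p = 0.0758). In all 3, antiPD1 replicates 1 and 2 were also above every IFNa library. With the greater level in IFNa, the galectin gene Lgals2 had a log2 fold change of -1.93 (adjusted p = 0.0691), with IFNa at 5.13, 9.19 and 10.03 CPM and antiPD1 at 2.41, 2.1 and 1.89 CPM. Tmed6, of the family of cargo proteins between endoplasmic reticulum and Golgi, was at 21.04, 20.4 and 21.9 CPM in IFNa and 11.9, 13.5 and 10.6 CPM in antiPD1 (-0.82, adjusted p = 0.0638). Dnajc12, a co-chaperone of aromatic amino acid hydroxylases, had a log2 fold change of -1.15 (adjusted p = 0.0758). Gss, which makes glutathione, had one of -0.75 (adjusted p = 0.0758).

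Among B and plasma cell genes, 10 of 11 were tested and 2 passed (Jchain and Pou2af1). All 10 had a positive log2 fold change, beside 50.9% of all genes. Of the 10, 5 (Ms4a1, Pax5, Blk, Mzb1 and Fcrla) reached the minimum for testing only through the antiPD1 libraries, so their groups had to differ. The other 5 each had the 3 antiPD1 libraries above the 3 IFNa libraries, here called separated, beside 12.4% of all genes. The median log2 fold change of the 10 was 2.72 and that of the other 5 was 2.67, beside 0.01 for all genes. The former was 2.25 without both libraries that stood apart. Their summed level was 1.92, 4.45 and 5.03 CPM in IFNa and 31.8, 53.9 and 71.0 CPM in antiPD1, so even the lowest antiPD1 library was above the highest IFNa library. Jchain makes up most of that sum in the antiPD1 libraries. Mzb1, a chaperone of antibody-secreting cells, was at 0.00, 0.114 and 0.0262 CPM in IFNa and 1.3, 2.05 and 2.47 CPM in antiPD1 (adjusted p = 0.0758). The B cell surface gene Ms4a1, encoding CD20, was at 0.03, 0.2 and 0.183 CPM in IFNa and 0.992, 1.08 and 1.11 CPM in antiPD1 (adjusted p = 0.0780). The levels of both were low, with 0 to 4 counts of Mzb1 and 1 to 7 counts of Ms4a1 in the IFNa libraries.

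Over all genes, 50.9% had a positive log2 fold change and 12.4% were separated, which stands beside the counts of this and the following lists. T cell identity genes had positive fold changes in 21 of 21, of which 0 passed, and 15 (71.4%) had all antiPD1 libraries above all IFNa libraries. Their median log2 fold change was 2.09, and it was 1.75 without IFNa replicate 1, 1.32 without antiPD1 replicate 3 and 0.99 without both. Their summed level was 109, 199 and 185 CPM in IFNa and 194, 331 and 549.9 CPM in antiPD1. AntiPD1 replicate 1 thus lay between IFNa replicates 2 and 3, and the summed levels of the groups overlapped. Cd8a, the coreceptor of cytotoxic T cells, was at 3.18, 8.94 and 8.98 CPM in IFNa and 12.4, 23.7 and 41.6 CPM in antiPD1 (log2 fold change 1.88, adjusted p = 0.0780). Bcl11b, a transcription factor of T cell commitment, was at 0.36, 1.43 and 1.57 CPM in IFNa and 3.0, 4.74 and 10.9 CPM in antiPD1 (2.46, adjusted p = 0.0780). Cd5, a brake on antigen receptor signalling, was at 1.29, 1.77 and 1.83 CPM in IFNa and 2.32, 5.93 and 12.6 CPM in antiPD1 (2.09, adjusted p = 0.0780). All 3 genes had their lowest antiPD1 value in replicate 1 and their highest in replicate 3. How far the levels of that library contribute to the T cell list was not tested beyond the medians without it.

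Cytotoxic effector genes had a median log2 fold change of 1.86 over 13 genes tested, with 13 positive and 0 passing. Of the 13, 9 were separated between the groups (69.2%, beside 12.4% of all genes). Ccl5, a chemokine of activated T cells, was at 3.36, 11.3 and 13.7 CPM in IFNa and 19.8, 40.6 and 179 CPM in antiPD1 (log2 fold change 3.07, adjusted p = 0.0809). Gzmb, the granzyme that triggers apoptosis in target cells, was at 5.1, 9.17 and 9.79 CPM in IFNa and 10.3, 10.4 and 24.8 CPM in antiPD1 (0.92, adjusted p = 0.166). For Gzmb, antiPD1 replicates 1 and 2 were barely above the highest IFNa libraries, and only replicate 3 was clearly apart. The median of the list was 1.13 without antiPD1 replicate 3 and 0.76 without both libraries that stood apart.

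Inhibitory receptors and their ligands gave a median of 1.72 over 14 genes, with 13 positive and 0 passing. Of the 14, 10 were separated (71.4%, beside 12.4% of all genes). The median was 1.05 without antiPD1 replicate 3, 0.76 without both libraries that stood apart and 0.96 with the Y-linked covariate. That covariate is the mean level of the Y-linked genes in each library. All 4 of these genes had positive fold changes (median 1.41), so the covariate follows the treatment in part. Fitting it can also take out part of the difference between the groups. Pdcd1, which encodes PD-1, the target of the antibody, was at 1.08, 3.8 and 5.08 CPM in IFNa and 5.24, 10.1 and 25.1 CPM in antiPD1 (log2 fold change 2.02, adjusted p = 0.0912). The lowest antiPD1 library was only just above the highest IFNa library. Cd274, encoding PD-L1, was at 25.9, 33.95 and 32.0 CPM in IFNa and 56.5, 50.01 and 168 CPM in antiPD1 (1.58, adjusted p = 0.0850). Ctla4, another T cell checkpoint receptor, was at 0.781, 1.03 and 0.707 CPM in IFNa and 2.01, 3.6 and 35.7 CPM in antiPD1 (4.03, adjusted p = 0.0793). Havcr2, encoding TIM-3, was at 3.12, 5.88 and 5.47 CPM in IFNa and 9.97, 11.1 and 26.2 CPM in antiPD1 (1.71, adjusted p = 0.0809). AntiPD1 replicate 3 was far above the others for Ctla4, whose log2 fold change was 1.72 without it (adjusted p = 0.182).

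Costimulatory genes had a median log2 fold change of 1.16 over 10 genes tested, with 8 positive, 5 separated and 0 passing. It was 0.65 without antiPD1 replicate 3 and 0.38 without both libraries that stood apart. The separated members were 50% of the list, beside 12.4% of all genes. Tnfrsf9, the activation receptor 4-1BB, was at 13.2, 9.77 and 11.3 CPM in IFNa and 28.8, 16.3 and 26.0 CPM in antiPD1 (1.06, adjusted p = 0.0809). AntiPD1 replicate 1 held its greatest level. Cd27 was at 0.42, 1.63 and 1.89 CPM in IFNa and 1.76, 4.51 and 7.52 CPM in antiPD1 (1.80, adjusted p = 0.106), and its groups overlapped. Regulatory T cell genes had a median of 2.09, with 8 of 8 positive, 6 separated (75%) and 0 passing. That median was 1.07 without antiPD1 replicate 3 and 0.92 without both. Of the 8, Ccr8 was tested only through the antiPD1 libraries, so its groups had to differ. Of the other 7, 5 were separated, and their median was 1.97. Foxp3, the defining transcription factor of regulatory T cells, was at 0.24, 0.685 and 0.55 CPM in IFNa and 0.737, 1.83 and 5.89 CPM in antiPD1 (2.50, adjusted p = 0.0852). NK cell genes had a median of 1.22 over 6 genes (0.63 without antiPD1 replicate 3, 0.28 without both), and 0 were separated between the groups. Klrd1 was at 0.57, 2.34 and 3.25 CPM in IFNa and 2.92, 5.76 and 10.4 CPM in antiPD1.

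Macrophage and monocyte genes had a median log2 fold change of 1.47, with 20 of 21 positive and 0 passing. Of the 21, 12 were separated (57.1%, beside 12.4% of all genes). Lyz2, the lysozyme of myeloid cells, was at 50.04, 125 and 130.4 CPM in IFNa and 393, 366 and 2238 CPM in antiPD1 (3.29, adjusted p = 0.0780). Csf1r, the receptor that keeps macrophages alive, was at 59.9, 75.3 and 70.0 CPM in IFNa and 107, 115 and 351 CPM in antiPD1 (1.48, adjusted p = 0.0852). AntiPD1 replicate 3 held the highest value of both, and the median of the list was 0.68 without that library. Fitted with the Y-linked covariate, which follows the treatment in part, the list had a median of 0.16. Dendritic cell genes had a median of 2.05 (13 of 13 positive, 0 passing), and 1.004 without both libraries that stood apart. Of the 13, 9 were separated (69.2%). Clec9a, a receptor of cross-presenting dendritic cells for dead cells, was at 0.66, 1.54 and 1.57 CPM in IFNa and 2.35, 3.32 and 15.7 CPM in antiPD1 (2.50, adjusted p = 0.0879). Ccr7, which guides mature dendritic cells and naive T cells to lymph nodes, was at 0.3, 0.828 and 0.89 CPM in IFNa and 1.98, 2.49 and 8.07 CPM in antiPD1 (2.62, adjusted p = 0.0780).

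Neutrophil genes had a median of 1.04, with 13 of 14 positive, 7 separated (50%, beside 12.4% of all genes) and 0 passing. S100a9, a subunit of calprotectin, was at 30.2, 13.1 and 14.7 CPM in IFNa and 40.5, 39.2 and 76.7 CPM in antiPD1 (1.43, adjusted p = 0.0850). IFNa replicate 1 had the greatest S100a9 level of its group, and the median of the list was 1.73 without that library. It was 0.64 without antiPD1 replicate 3 and 0.44 with the Y-linked covariate. Mast cell genes were scarce, and 3 of 8 reached the minimum for testing. Of these, Mcpt4 and Tpsb2 reached it only through the antiPD1 libraries, so their groups had to differ. The mast cell protease gene Mcpt4 was at 0.00, 0.114 and 0.105 CPM in IFNa and 0.595, 1.58 and 1.47 CPM in antiPD1 (3.96, adjusted p = 0.0758).

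**Figure D3:**
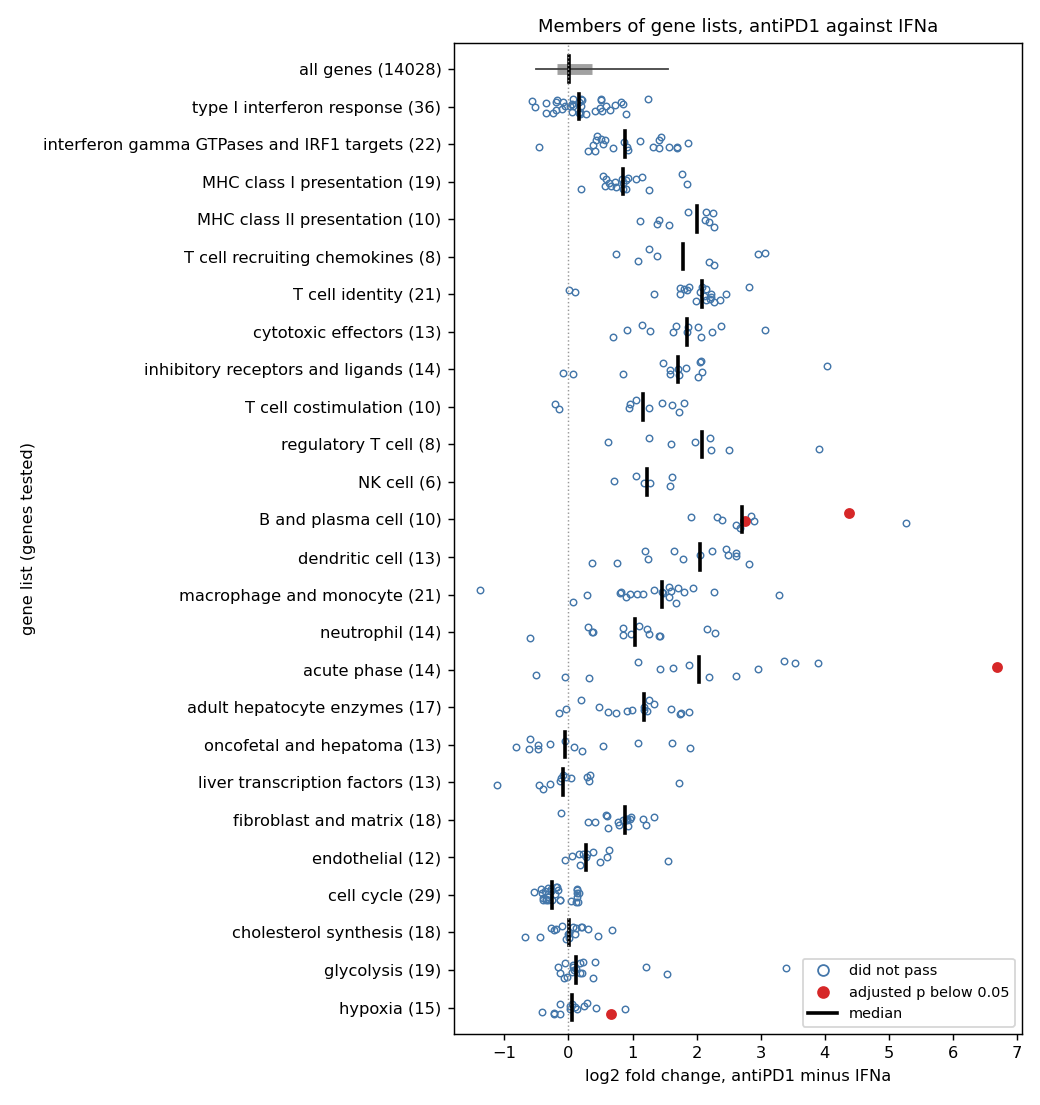
Log2 fold change of antiPD1 minus IFNa (horizontal axis) for the members of 25 gene lists (vertical axis, number of genes tested in brackets); open circles did not pass, red circles had an adjusted p below 0.05 and black bars are medians. The top row gives the 5th to 95th percentile of all 14028 genes as a line (-0.51 to 1.55) and the 25th to 75th as a thick bar (-0.18 to 0.36); the B and plasma cell list has its median at 2.72 and the type I interferon list at 0.17.

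Type I interferon response genes, the textbook targets of interferon alpha, had a median log2 fold change of 0.17 over 36 genes, with 25 positive and 11 negative, and 0 passed. In 9 genes all antiPD1 libraries were above all IFNa libraries and in 1 gene the reverse held, beside 12.4% and 9.59% of all genes. The median ranged from -0.20 with the Y-linked covariate, through -0.08 without antiPD1 replicate 3 and 0.052 without IFNa replicate 2, to 0.30 without IFNa replicate 1, so its sign was not stable. The promoters of Isg15 and Ifit1 are shown as examples that hold the element through which type I interferon acts. In the RefSeq promoter table (build GRCm38.p6), 27 of the 36 genes had an entry, and the core of the interferon-stimulated response element, which is GAAA, any 2 bases and GAAA again, was searched on both strands in the 250 bases before the start. It was found in 11 of the 27 (40.7%), in 361 of 10722 tested genes with an entry (3.37%) and in 978 of all 32851 promoters (2.98%). The stretches below run 5′ to 3′ on the gene's strand, with the matches in capitals, and overlapping matches form 1 run. In Ifit1 the matches lie on the other strand and read TTTC, 2 bases and TTTC. The positions are chr4:156200819-156200928 (minus strand) for Isg15 and chr19:34640765-34640864 (plus strand) for Ifit1.
Isg15: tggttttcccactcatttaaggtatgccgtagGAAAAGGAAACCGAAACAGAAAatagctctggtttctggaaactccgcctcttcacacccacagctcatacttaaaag
Ifit1: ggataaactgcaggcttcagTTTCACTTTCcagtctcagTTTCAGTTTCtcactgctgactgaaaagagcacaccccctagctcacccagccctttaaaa
A match describes the letters and is not a site of binding or a cause. Among the tested genes of the type I list, the median log2 fold change was 0.06 for the 11 with a match and 0.17 for the others. Among all tested genes it was 0.16 for the 361 with a match and -0.0008 for the others.

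Isg15, a ubiquitin-like modifier with 3 matches in the stretch above, was at 14.9, 9.62 and 11.2 CPM in IFNa and 9.01, 11.2 and 14.2 CPM in antiPD1. The groups overlapped almost fully, with a log2 fold change of -0.05 ± 0.24 (SE; adjusted p = 0.915), which was 0.14 without IFNa replicate 1 and 0.09 without antiPD1 replicate 1. Ifit1, which binds viral RNA caps, was at 8.08, 4.88 and 5.55 CPM in IFNa and 5.35, 4.96 and 5.31 CPM in antiPD1 (-0.24 ± 0.29, SE; adjusted p = 0.646). Here only IFNa replicate 1 lay above the others. Oasl2, an oligoadenylate synthetase-like protein, was at 22.8, 37.0 and 33.3 CPM in IFNa and 38.7, 50.4 and 56.3 CPM in antiPD1 (0.64, adjusted p = 0.190). Samd9l, a restriction factor, was at 37.2, 46.6 and 33.4 CPM in IFNa and 74.3, 71.3 and 64.7 CPM in antiPD1 (0.84, adjusted p = 0.0780). Samd9l was separated without reliance on antiPD1 replicate 3, which was its lowest antiPD1 library. Interferon receptor and JAK-STAT genes had a median of 0.13 over 13 genes, with 0 passing. Of the 13, 1 was separated (7.69%, beside 12.4% of all genes).

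Genes tied to interferon gamma had a larger median than the type I list. Over 22 guanylate-binding proteins, immunity-related GTPases and IRF1 targets the median was 0.88, with 21 positive and 0 passing. Of the 22, 14 were separated (63.6%, beside 12.4% of all genes). The median was 0.60 without IFNa replicate 1, 0.49 without antiPD1 replicate 3 and 0.31 without both. Gbp4 was at 21.4, 35.7 and 33.8 CPM in IFNa and 57.3, 65.9 and 118 CPM in antiPD1 (1.41, adjusted p = 0.0849). Gbp5, which supports inflammasome assembly, was at 10.1, 18.4 and 19.2 CPM in IFNa and 31.2, 33.9 and 90.3 CPM in antiPD1 (1.70, adjusted p = 0.0863). Both had every antiPD1 library above every IFNa library. The same response element core was found in 10 of the 13 genes of this list with a promoter entry (76.9%).

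MHC class I presentation genes had 19 of 19 positive, 9 separated (47.4%, beside 12.4% of all genes) and 0 passing. Their median log2 fold change was 0.84. It was 0.47 without antiPD1 replicate 3, 0.33 without both libraries that stood apart and 0.28 with the Y-linked covariate. H2-K1, a classical class I heavy chain with close paralogs that could share reads, was at 198, 194 and 219 CPM in IFNa and 359, 373 and 1474 CPM in antiPD1 (1.85, adjusted p = 0.0850), and its log2 fold change was 0.83 without antiPD1 replicate 3. H2-Q4, a non-classical class I gene of the same uncertainty, was at 98.7, 123.9 and 142 CPM in IFNa and 155, 233 and 294 CPM in antiPD1 (0.91, adjusted p = 0.0793). MHC class II genes, which mark professional antigen-presenting cells, had a median log2 fold change of 2, and all 10 tested were separated, with 0 passing. Their summed level was 292, 1484 and 1680.0 CPM in IFNa and 1877, 3036 and 8518 CPM in antiPD1. IFNa replicate 1 was far below the other IFNa libraries, antiPD1 replicate 1 was close above them, and the median was 1.15 without antiPD1 replicate 3 and 0.71 without both libraries that stood apart. H2-DMa, which loads peptide on class II molecules, was at 22.6, 33.5 and 36.1 CPM in IFNa and 41.4, 64.9 and 134 CPM in antiPD1 (1.38, adjusted p = 0.0809).

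Among chemokines and the receptors that bring T cells into tissue, 8 of 8 were positive and 0 passed. Of the 8, 7 were separated (87.5%, beside 12.4% of all genes). The median of the list was 1.79. It was 1.08 without antiPD1 replicate 3, 0.77 without both libraries that stood apart and 0.90 with the Y-linked covariate. Cxcl9 was at 30.8, 97.0 and 89.9 CPM in IFNa and 150.3, 186 and 666 CPM in antiPD1 (2.20, adjusted p = 0.0863), and its log2 fold change was 1.19 without antiPD1 replicate 3. Cxcl10, which type I interferon also induces, was at 14.2, 40.1 and 45.7 CPM in IFNa and 43.7, 52.2 and 70.7 CPM in antiPD1 (0.74, adjusted p = 0.309). Of this pair, Cxcl9 was separated between the groups and Cxcl10 was not. Their receptor Cxcr3 was at 0.18, 0.514 and 0.55 CPM in IFNa and 1.1, 3.9 and 4.82 CPM in antiPD1 (2.96, adjusted p = 0.0780). Myeloid chemokines had a median of 1.07 over 12 genes, with 11 positive, 4 separated (33.3%) and 0 passing, and 0.64 without both libraries.

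**Figure D4:**
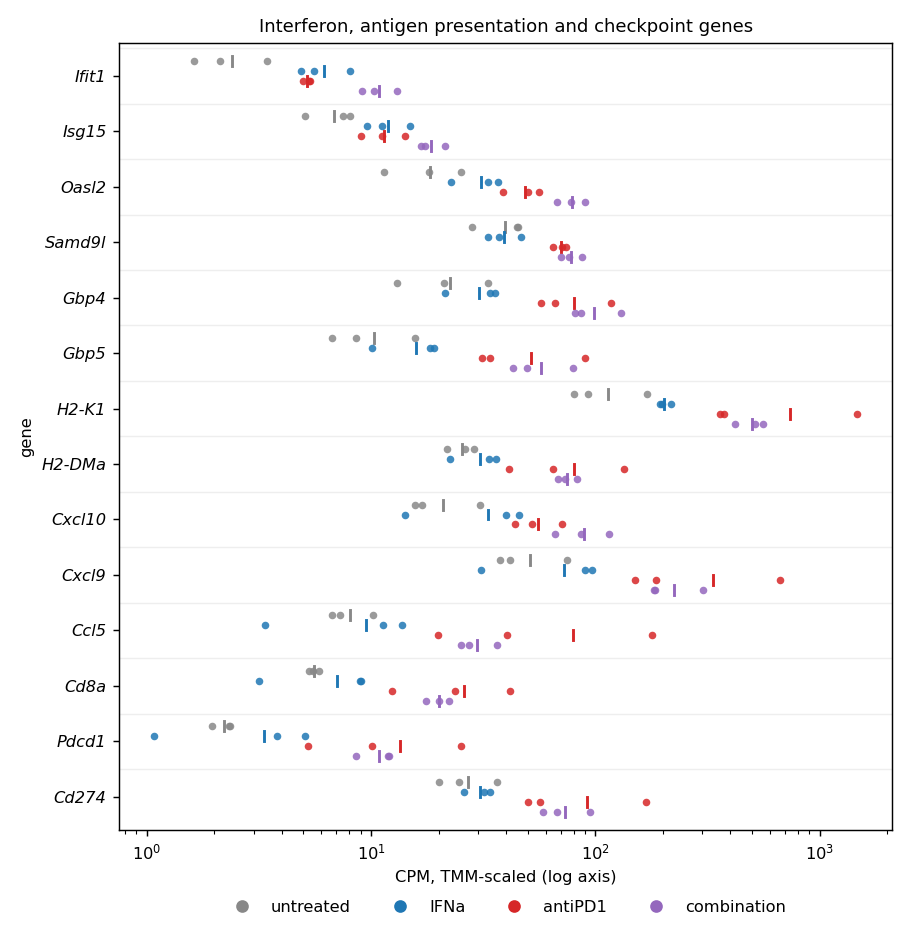
CPM (horizontal log axis) of interferon, antigen presentation, chemokine and checkpoint genes (vertical axis) in all 12 libraries; points are libraries coloured by group and short bars are group means. IFNa and antiPD1 points overlap for Ifit1, Isg15 and Cxcl10 and do not overlap for the other genes shown.

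Acute phase genes of the liver had a median log2 fold change of 2.04 over 14 genes, with 12 positive and 1 passing (Saa3). Of the 14, 5 were separated (35.7%, beside 12.4% of all genes). The median was 2.85 without IFNa replicate 1, 0.64 without antiPD1 replicate 3 and 1.59 without both. With the Y-linked covariate it was -0.13. Saa1 was at 60.4, 47.3 and 49.4 CPM in IFNa and 154, 216 and 1252 CPM in antiPD1 (3.37, adjusted p = 0.0780), and Saa2 at 41.3, 39.8 and 36.0 CPM and 133, 238 and 1369.6 CPM (3.89, adjusted p = 0.0780). These neighbours of Saa3 are near-identical to each other and could share reads. Unlike Saa3, they were also above their untreated levels in IFNa, where untreated libraries had 3.24 to 11.8 CPM of Saa1 and 1.81 to 7.44 CPM of Saa2, with no overlap. Orm2, an orosomucoid, was at 11.4, 11.3 and 10.8 CPM in IFNa and 32.7, 37.1 and 135 CPM in antiPD1 (2.62, adjusted p = 0.0809). The promoter of Saa3 is shown because this gene had the largest fold change among those that passed. Its 250 bases hold 1 match of the interferon-stimulated response element core. The stretch is at chr7:46715701-46715816 (minus strand; RefSeq, GRCm38.p6), 5′ to 3′ on the gene's strand, with that match in capitals. The stretch also holds 1 match, left in lower case, of the C/EBP core described after it.
Saa3: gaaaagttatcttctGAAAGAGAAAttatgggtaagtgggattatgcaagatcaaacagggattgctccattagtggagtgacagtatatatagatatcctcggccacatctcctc
The core TTGCNNAA, bound by C/EBP factors of the acute phase response, was found on either strand in 7 of 12 acute phase genes with an entry (58.3%) and in 9.56% of all promoters.

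Genes of adult hepatocytes had a median log2 fold change of 1.18, with 15 of 17 positive, but 0 were separated and 0 passed, nor did any reach an unadjusted p below 0.05. Their summed level was 2404, 621 and 578 CPM in IFNa and 1187, 557 and 4618 CPM in antiPD1. Each group thus had 1 library far above the rest, IFNa replicate 1 and antiPD1 replicate 3. The median changed from 1.99 without IFNa replicate 1 to -0.18 without antiPD1 replicate 3 and -1.66 with the Y-linked covariate. Otc, a urea cycle enzyme, was at 10.5, 6.62 and 6.68 CPM in IFNa and 13.8, 9.41 and 56.2 CPM in antiPD1 (1.74, adjusted p = 0.233). Fbp1, a gluconeogenic enzyme, was at 26.9, 14.2 and 14.8 CPM in IFNa and 32.2, 14.4 and 143 CPM in antiPD1 (1.76, adjusted p = 0.260). Their folds were -0.81 and -1.23 with the Y-linked covariate.

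Sex-biased liver genes had 8 positive and 4 negative fold changes over 12 genes tested, and 1 passed (Cyp2a4, higher in IFNa). The log2 fold changes ran from -4.60 to 5.05, so the list median of 1.59 does not stand for a shared direction. The median was -0.35 without antiPD1 replicate 3, -0.12 without both libraries that stood apart and -1.37 with the Y-linked covariate. In 2 genes all antiPD1 libraries were above all IFNa libraries and in 4 the reverse held, beside 12.4% and 9.59% of all genes. Elovl3, a fatty acid elongase, had the largest positive fold change of the list, at 0.030, 0.400 and 0.393 CPM in IFNa and 0.283, 2.41 and 25.4 CPM in antiPD1 (5.05, adjusted p = 0.0946). Its groups overlapped, antiPD1 replicate 3 was far above the rest, and the log2 fold change was 2.25 without that library. Without antiPD1 replicate 1 the gene passed (adjusted p = 0.0410). Akr1c18, a steroid-metabolising reductase, was at 3.54, 4.68 and 5.94 CPM in IFNa and 1.1, 0.942 and 0.293 CPM in antiPD1 (-2.58, adjusted p = 0.0780). Cyp3a16, another cytochrome P450 of female or immature liver, was at 7.66, 11.4 and 14.0 CPM in IFNa and 2.52, 1.33 and 2.15 CPM in antiPD1 (-2.46, adjusted p = 0.0780). Both resembled Cyp2a4 in having every IFNa library above every antiPD1 library, and their untreated levels of 3.57 to 9.68 CPM and 11.5 to 48.2 CPM spread more widely. Y-linked genes had the opposite order, with 4 of 4 positive and 2 separated. Kdm5d was at 2.34, 1.83 and 2.41 CPM in IFNa and 4.79, 4.35 and 11.04 CPM in antiPD1 (1.61, adjusted p = 0.0838). With the Y-linked covariate the log2 fold change of Cyp2a4 was -3.97 (adjusted p = 0.368).

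Oncofetal and hepatoma markers had a median of -0.05 over 13 genes, with 0 passing. In 4 of them all IFNa libraries were above all antiPD1 libraries, beside 9.59% of all genes, and in 1 the reverse held, beside 12.4%. With 1 library left out in turn the median ranged from -0.33 to 0.18. Afp was at 7769, 10276 and 11170.0 CPM in IFNa and 7325, 6250.4 and 7496 CPM in antiPD1 (-0.47, adjusted p = 0.0933). Epcam, an epithelial adhesion protein, was at 158, 132 and 154 CPM in IFNa and 107, 105 and 80.3 CPM in antiPD1 (-0.60, adjusted p = 0.0780). Gpc3, a heparan sulfate proteoglycan of fetal liver and hepatoma, was at 321, 637 and 678 CPM in IFNa and 277, 269 and 383 CPM in antiPD1 (-0.82, adjusted p = 0.115). Afp and Epcam were separated between the groups and Gpc3 was not, because IFNa replicate 1 lay below antiPD1 replicate 3. Liver transcription factors had a median of -0.08 over 13 genes (-0.0026 without antiPD1 replicate 1), and Hnf4a was at 235, 417 and 341 CPM in IFNa and 221, 259.9 and 242 CPM in antiPD1 (-0.46, adjusted p = 0.170).

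Fibroblast and matrix genes had a median of 0.88 (17 of 18 positive, 0 passing). It was 0.42 without antiPD1 replicate 3 and -0.24 with the Y-linked covariate. Of the 18, 6 were separated (33.3%, beside 12.4% of all genes). Col3a1, a fibrillar collagen, was at 234, 286 and 329.5 CPM in IFNa and 498, 325 and 1091 CPM in antiPD1 (1.17, adjusted p = 0.193). Pdgfrb, a receptor of pericytes and fibroblasts, was at 38.5, 25.5 and 22.6 CPM in IFNa and 52.0, 40.0 and 79.1 CPM in antiPD1 (0.98, adjusted p = 0.145). Endothelial genes had a median of 0.28 over 12 genes, with 0 separated, and -0.060 to 0.69 with 1 library left out in turn.

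Glycolysis and hypoxia genes had medians of 0.12 (19 genes) and 0.05 (15 genes), which ranged from 0.062 to 0.22 and from -0.0038 to 0.16 with 1 library left out in turn. P4ha1 was the only one of them that passed. Aldoa, the glycolytic aldolase, was at 1323, 1514 and 1655 CPM in IFNa and 1914, 2023 and 2046 CPM in antiPD1 (0.41, adjusted p = 0.0818). Slc16a3, a lactate exporter, was at 8.08, 12.4 and 11.8 CPM in IFNa and 28.8, 12.9 and 51.9 CPM in antiPD1 (1.54, adjusted p = 0.0850). The glucose transporter gene Slc2a1 was at 422, 326 and 332 CPM in IFNa and 376, 369.7 and 381 CPM in antiPD1 (0.06, adjusted p = 0.862), and the groups overlapped. Ldha, Hk2 and Hif1a had log2 fold changes of -0.14, 0.22 and 0.28, with overlap in each. The promoter of P4ha1 is shown as that of the hypoxia target that passed, at chr10:59323236-59323295 (plus strand; RefSeq, GRCm38.p6), with the hypoxia response element core ACGTG, here on the reverse strand as CACGT, in capitals.
P4ha1: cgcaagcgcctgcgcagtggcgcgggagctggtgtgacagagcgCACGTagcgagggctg
The core was found on either strand in 9 of 13 hypoxia genes with an entry (69.2%), in 10 of 18 glycolysis genes (55.6%), in 24% of all tested genes and in 16.6% of all promoters.

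Other programmes of the cells gave no gene that passed. Cell cycle genes had a median of -0.26, with 8 of 29 positive and 0 separated, and it was -0.53 without IFNa replicate 1, the library with their lowest sum, -0.12 without IFNa replicate 2 and -0.0022 without IFNa replicate 3. With the Y-linked covariate it was -0.022. Ccnb1, a mitotic cyclin, was at 40.0, 88.7 and 86.8 CPM in IFNa and 54.1, 59.3 and 46.8 CPM in antiPD1. Cholesterol synthesis genes had a median of 0.01 over 18 genes (-0.23 to 0.20 with 1 library left out in turn), with 0 separated and 1 with all IFNa libraries above all antiPD1 libraries. Wnt feedback and target genes had a median of 0.01 (-0.095 to 0.18 with 1 left out), with the secreted inhibitor Notum at 30.2, 52.4 and 56.6 CPM in IFNa and 76.8, 60.1 and 52.2 CPM in antiPD1. Immediate early genes, which respond quickly to stress, had a median of 0.18, and 0.026 to 0.54 with 1 library left out in turn. Fosb was at 81.1, 6.85 and 6.75 CPM in IFNa and 21.3, 17.3 and 15.3 CPM in antiPD1, so the sign of its fold change (-0.81) came from IFNa replicate 1 and was 1.40 without it. Jun was at 42.4, 23.2 and 24.3 CPM in IFNa and 54.5, 39.3 and 209.6 CPM in antiPD1.

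The summed level of 5 listed genes on chromosome 17, from Crb3 (chr17:57059105-57065918, plus strand) to Nudt12 (chr17:58999618-59013372, minus strand), separated IFNa replicates 2 and 3 from the other libraries. All 5 listed genes had negative fold changes, with a median of -0.81, and 0 passed. The list does not hold every gene of this interval. Adgre1 (chr17:57358691-57483527, plus strand), of the macrophage list, lies within it and was not listed here. It went the other way, at 9.1, 21.8 and 20.4 CPM in IFNa and 33.8, 34.9 and 129 CPM in antiPD1 (1.94, adjusted p = 0.0849). Trip10, an adaptor of membrane curvature, was at 114, 333 and 338 CPM in IFNa and 125, 146 and 100.5 CPM in antiPD1, and at 105 to 137 CPM in untreated libraries. Crb3, an epithelial polarity protein, was at 52.7, 146 and 151 CPM in IFNa and 52.2, 66.4 and 45.4 CPM in antiPD1. Nudt12, an NADH-hydrolysing enzyme, was at 15.6, 43.2 and 36.9 CPM in IFNa and 16.7, 16.7 and 21.2 CPM in antiPD1. IFNa replicate 1 was thus at the level of the antiPD1 libraries for these 3 genes. Without it they passed, with log2 fold changes of -1.44 (adjusted p = 0.0156), -1.44 (adjusted p = 0.00745) and -1.14 (adjusted p = 0.0214). The list was chosen with earlier results of these data known, and leaving out the library that differs favours a pass. The shared sign and these p-values are therefore not independent support for a difference. Crb3 overlaps Slc25a23 and Dennd1c, and Nudt12 overlaps its antisense gene, so their reads could be shared.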

How the data were processed

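Total RNA of 12 libraries (3 in each of 4 groups) had been sequenced. The submitters' processing notes name the mm10 assembly and the tools Cufflinks, HTSeq and HISAT2 (2.1.0); they give no step for each, no annotation and no strand setting. The authors deposited 1 whole-number count per gene and library, and FPKM values of the same genes, which served only as an alternative. Library totals were 31.3 to 38.5 M.

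Genes with 10 or more counts in 3 or more of the 6 libraries were scaled by TMM and tested in edgeR 4.0.16 (R 4.3.3) by its quasi-likelihood F test with robust estimation, with all 12 libraries, 1 mean per group and the contrast antiPD1 minus IFNa. The Benjamini-Hochberg adjustment covered all 14028 genes, and the threshold was 0.05. Standard errors are the fold change over the root of F. The procedure was tested on simulated data. The contrast of combination with untreated was added after the data were seen.

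The comparison and the 39 gene lists (541 genes, written from general knowledge) were chosen with earlier results of these data known. The chromosome 17 list is a set of neighbouring genes rather than a pathway or cell type. Lists are described by counts and medians, without a test. Named genes were the up to 15 with the largest fold in each direction that passed with non-overlapping groups and a mean of at least 5 CPM in either group, filled up by smallest p, plus up to 4 per list by smallest p and a preset set. Of the genes that passed, 1 is not reported here. Coordinates are from GENCODE M21, where 13592 tested symbols matched, and promoters from RefSeq (GRCm38.p6), with 10722 tested genes matched.

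Alternatives were RLE size factors, other filters, only the 6 libraries, no robust estimation, DESeq2 1.42.0, limma 3.58.1 (voom, and trend on log2 FPKM with pseudocounts of 1 and 0.1), a replicate block, a Y-linked covariate and libraries left out. Intervals and floors (3 counts) cover counting error and spread only. No library pair was identical.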

Additional observations from a re-analysis of the deposited data

How the results depend on the processing

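The counts of 9 genes higher in antiPD1 and 9 higher in IFNa ranged from 0 to 506 and from 0 to 201 when 1 library was left out in turn. With only the 6 libraries compared they were 0 and 0, with DESeq2 1007 and 632, with FPKM plus 1 or plus 0.1 they were 1 and 0, and with the Y-linked covariate 2 and 0. Without a low-count filter 5 genes were higher in antiPD1. With FPKM plus 1 and no minimum 2 were higher in IFNa, and with IFNa replicate 1 and antiPD1 replicate 3 both left out 34 were. The causes were not tested. The replicate block gave 196 and 86, but the labels do not say whether the replicate numbers pair the samples. Deviations of same-numbered libraries correlated at 0.35, 0.29 and 0.0072, and IFNa replicate 3 correlated best with antiPD1 replicate 2 (0.26). With 3 libraries a group, these correlations cannot decide whether the numbers pair the samples. Signs reversed only in genes that did not pass. With 1 library left out in turn, Isg15 ranged from -0.26 to 0.14, Slc2a1 from -0.040 to 0.19 and Fosb from -1.32 to 1.40. Ifit1 was 0.0021 with voom. With the Y-linked covariate Otc was -0.81, Fbp1 -1.23, Col3a1 -0.27, Hif1a -0.013, Ldha 0.055 and Jun -0.15. Fosb was 1.29 with voom, 0.013 with FPKM plus 1 (with or without the minimum), 0.16 with FPKM plus 0.1 and 1.48 without both libraries. With 3 libraries a group, genes below a few CPM, such as Mzb1, Ms4a1 and Mcpt4, rest on few counts.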
